A study of Mus musculus with 19 samples.

Results

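The p53 stress response effectors examined here are 10 genes that the tumour suppressor p53 is known to switch on when cells are under stress. They are Aen, Ei24, Perp, Trp53inp1, Plk2, Btg2, Zmat3, Sesn1, Sesn2 and Phlda3. They were taken by name, through the RefSeq accession printed for each probe in the array files, out of 20660 gene symbols on the array, and 12 probes matched. Every one of the 12 probes had a lung signal well above background in all 18 mice, so all 10 genes passed the filter on dim probes, against 14739 genes in the whole series.

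RNA came from random sections of lung of male MutaMouse mice, which carry a bacterial transgene as a target for mutation assays in every dose group alike. The mice were aged about 12 weeks and had received olive oil alone or a mixture of 8 polycyclic aromatic hydrocarbons (8PAH-Mix) in olive oil by daily oral gavage for 28 days. Tissue was taken 72 h after the last gavage. The dose groups were D0 (vehicle treated controls, 5 mice), D1 (15 mg benzo[a]pyrene (BaP) equivalents per kg body weight per day, 4 mice), D2 (30 mg, 5 mice) and D3 (60 mg, 4 mice), and on each array lung RNA, in the red dye, was set against one reference RNA made from 11 mouse cell lines, in the green dye. Dyes were not swapped. Lung tissue was measured as a whole, so fewer cells of a type and less RNA per cell cannot be told apart.

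The protein p53 is held at a low level in resting cells by Mdm2, which marks it for breakdown, and by Mdm4, which blocks its activity. DNA damage, such as the bulky adducts that metabolites of polycyclic aromatic hydrocarbons form, releases p53, which then binds pairs of short half-sites near its target genes. The effectors are those target genes that act on the cell: some halt division, some promote cell death, some limit growth signalling or oxidative damage, and some feed back on p53.

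One label is in doubt. An array labelled D2 Mouse 23 carries an animal number that falls among the D1 numbers, whereas its place on the slide is in the column of the D2 arrays. The group sizes stated in the study's methods are those that result if mouse 23 is counted in D1. It was kept in D2, as labelled, and was counted in D1 as an alternative. Among the 6 effectors that changed at D3, as described further on, mouse 23 had the lowest D2 level for 5, the exception being Plk2, and its level lay within the D1 range for all 6. For the other D2 mice, 12 of 24 such levels lay within the D1 range. D3 mouse 35 had a pair of arrays, which were averaged, and the second array differed from the first by between -0.32 and 0.25 on the log2 scale over the 12 probes.

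Sequences are shown first because the effectors share p53 as a regulator and the 250 bases before the RefSeq start could be searched for its half-site. In all, 9 windows were found for 7 of the 10 genes (RefSeq, GRCm38.p6), 2 each for Aen and Sesn1, and none was found for Zmat3, Trp53inp1 and Perp. An exact match to the p53 half-site consensus, which reads the same on both strands, was present in 3 of the 9 windows, each of another gene, and 7.13% of all 32851 RefSeq windows of the same length held one. The other window of Aen and that of Sesn1, each for an earlier start, held none. The 3 windows are printed 5′ to 3′ in the direction of transcription with the half-site in capitals.
Aen (second of a pair of RefSeq starts), chr7:78895808-78896057, plus strand: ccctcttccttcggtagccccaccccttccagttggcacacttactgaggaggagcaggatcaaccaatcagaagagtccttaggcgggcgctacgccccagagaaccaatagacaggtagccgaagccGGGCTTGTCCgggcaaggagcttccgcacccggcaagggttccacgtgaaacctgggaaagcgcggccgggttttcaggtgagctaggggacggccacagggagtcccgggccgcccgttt
Sesn1 (second of a pair of RefSeq starts), chr10:41887189-41887438, plus strand: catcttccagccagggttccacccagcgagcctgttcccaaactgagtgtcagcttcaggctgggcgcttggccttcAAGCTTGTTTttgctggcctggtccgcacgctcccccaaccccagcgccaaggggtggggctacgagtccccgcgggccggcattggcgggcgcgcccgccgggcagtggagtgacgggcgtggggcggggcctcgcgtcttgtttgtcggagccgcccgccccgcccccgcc
Ei24, chr9:36797335-36797584, minus strand: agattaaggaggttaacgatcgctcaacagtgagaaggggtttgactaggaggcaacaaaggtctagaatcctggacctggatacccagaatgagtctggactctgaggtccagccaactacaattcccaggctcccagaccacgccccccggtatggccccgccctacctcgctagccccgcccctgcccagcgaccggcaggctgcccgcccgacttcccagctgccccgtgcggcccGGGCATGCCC
The half-site lay at positions -121 to -112 from the start in Aen, at -173 to -164 in Sesn1 and at -10 to -1 in Ei24. A pair of half-sites no more than 13 bases apart, both with the central bases of the consensus (C, A or T, A or T, G) intact and with at most 3 mismatches in all, was found in 2 of the 9 windows, those printed for Aen and Sesn1, and in 5.62% of all windows. The motif GCGTG, the core to which the aryl hydrocarbon receptor binds, occurred on either strand in 5 of the 9 windows and in 28.2% of all windows. The 3 genes with a half-site match behaved differently on the arrays: Aen was among the genes that rose most, Ei24 did not pass the fold threshold, and Sesn1 was not called at any dose. Phlda3, which rose most, had no half-site match in its window, which says only that these letters are absent there.

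Of the 10 effectors, 6 rose with the 8PAH-Mix, Ei24 passed the adjusted p at D3 but not the fold threshold, and the other 3 passed neither. At D3 the called genes were Phlda3, Aen, Zmat3, Trp53inp1, Plk2 and Sesn2, with increases between 1.89-fold for Sesn2 and 4.55-fold for Phlda3. A probe was called where the Benjamini-Hochberg adjusted p over all 31005 tested probes, from limma, was at most 0.05 and the change was at least 1.5-fold. At D1, 5 of the 12 probes (4 of 10 genes) were called higher, against a background of 0.593% of all tested probes. At D2, 8 probes (6 genes) were called higher, against 0.435% of all probes, and at D3, 8 probes (the same 6 genes) against 1.21%. By limma 0 probes of an effector were called lower at any dose, by adjusted or by unadjusted p. With arrays centred on their median in place of loess normalisation, 1, 2 and 5 probes were called higher at D1, D2 and D3, where 0.0387%, 0.0581% and 0.316% of all probes were called in either direction. By adjusted p alone, without the fold threshold, 8 of the 12 probes were higher at D1 (2.42% of all probes), 8 at D2 (1.37%) and 9 at D3 (6.02%). The median change of the 10 genes on the log2 scale was 0.50 at D1, 0.63 at D2 and 0.99 at D3, whereas the median over all 14737 genes whose brightest probe was tested was 0.03 at D1, 0.02 at D2 and 0.03 at D3.

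**Figure D1:**
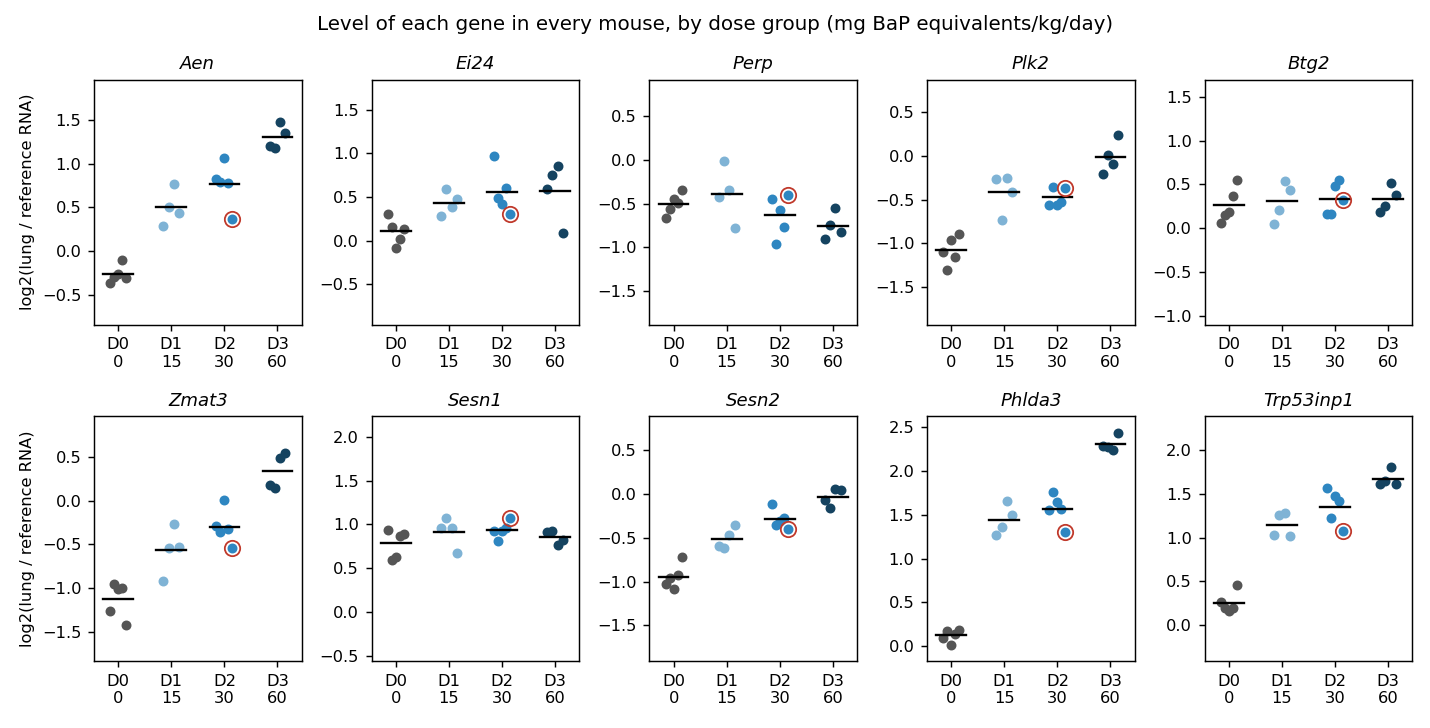
Log2 ratio of lung over reference RNA for the 10 effectors (vertical axes, each spanning the same number of log2 units) in each mouse, by dose group with the dose in mg BaP equivalents/kg/day (horizontal axes). Points are mice, black lines are group means, and the red ring marks mouse 23. The D3 points of Aen, Plk2, Zmat3, Sesn2, Phlda3 and Trp53inp1 all lie above all D0 points, while those of Btg2, Sesn1, Perp and Ei24 overlap with D0.

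Among the genes tied to cell death, Aen and Trp53inp1 rose at every dose. Aen (NM_026531) encodes an exonuclease that digests DNA during apoptosis. The Aen log2 ratio of lung over reference RNA was -0.36, -0.30, -0.26, -0.10 and -0.31 in the 5 D0 mice and 0.29, 0.51, 0.76 and 0.44 in the 4 D1 mice. It was 0.82, 0.79, 1.07, 0.77 and 0.37 in the 5 D2 mice, mouse 23 last, and 1.20, 1.18, 1.48 and 1.34 in the 4 D3 mice. All D1, D2 and D3 mice lay above all D0 mice, and all D3 mice lay above all D1 and D2 mice. The log2 change from D0 was 0.76 ± 0.12 (SE) at D1, 1.03 ± 0.11 at D2 and 1.57 ± 0.12 at D3, which is 2.96-fold (limma adjusted p = 8.0e-08). A second Aen probe, for the same accession, gave 0.69, 0.98 and 1.47 and was called at all 3 doses.

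Trp53inp1 (NM_021897) encodes a stress-induced protein that binds p53 and its activating kinases and also takes part in autophagy. The Trp53inp1 log2 ratio of lung over reference RNA was 0.27, 0.19, 0.16, 0.20 and 0.46 in the 5 D0 mice and 1.03, 1.26, 1.28 and 1.02 in the 4 D1 mice. It was 1.57, 1.22, 1.47, 1.42 and 1.08 in the 5 D2 mice, mouse 23 last, and 1.61, 1.65, 1.81 and 1.62 in the 4 D3 mice. No treated mouse overlapped with D0. The log2 change was 0.89 ± 0.10 (SE) at D1, 1.10 ± 0.09 at D2 and 1.42 ± 0.10 at D3, or 2.67-fold at D3 (limma adjusted p = 3.88e-08). The second probe gave smaller changes of 0.52, 0.61 and 1.02. It was called at D2 and D3, and at D1 it had an adjusted p of 0.032 at 1.44-fold, short of the fold threshold, with D1 and D0 overlapping.

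Perp and Ei24 were not called. Perp (NM_022032) encodes a membrane protein that p53 induces in dying cells and that stratified epithelia need for their desmosomes. Its level ranged from -0.67 to -0.34 in D0, from -0.78 to -0.01 in D1, from -0.96 to -0.40 in D2 and from -0.90 to -0.55 in D3, so every dose group overlapped with D0. The log2 change at D3 was -0.26 with a 95% confidence interval from -0.53 to 0.02 (limma adjusted p = 0.237). Of 6 markers of squamous or basal epithelium, Krt4 and Dsg3 were too dim to test, and 0 of the other 4 were called at any dose by limma, with 2 lower at D3 by unadjusted p. The larger of these was Trp63, at -0.38 (adjusted p = 0.00964), short of the fold threshold. The mean level of the 4 tested markers ranged from -0.06 to 0.05 in D0 and from -0.30 to -0.16 in D3, without overlap. At D1 and D2 it overlapped with D0. The part of these cells in the Perp values was not tested.

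Ei24 (NM_001199494) encodes a membrane protein of the endoplasmic reticulum that is needed for autophagy. Its level ranged from -0.08 to 0.31 in D0, from 0.28 to 0.59 in D1, from 0.30 to 0.97 in D2 and from 0.09 to 0.85 in D3. The 4 D3 mice were at 0.59, 0.75, 0.85 and, for mouse 35, 0.09, and mouse 35 alone lay within the D0 range. The log2 change was 0.33 at D1 and 0.45 at D2, and at D3 it was 0.46 ± 0.14 (SE), with a limma adjusted p of 0.0372 at 1.38-fold, short of the fold threshold. Without mouse 35 the change was 0.62 (limma adjusted p = 0.00636) and the gene was called.

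Of the genes that restrain cell division, Plk2 rose and Btg2 was not called. Plk2 (NM_152804) encodes a polo-like kinase that acts in centriole duplication and in the response to stress. The Plk2 log2 ratio of lung over reference RNA was -1.10, -1.30, -0.96, -1.15 and -0.89 in the 5 D0 mice and -0.27, -0.73, -0.25 and -0.42 in the 4 D1 mice. It was -0.56, -0.36, -0.56, -0.53 and -0.36 in the 5 D2 mice, mouse 23 last, and -0.21, 0.01, -0.10 and 0.24 in the 4 D3 mice. All treated mice lay above all D0 mice, and the D1 and D2 mice overlapped. The log2 change was 0.67 ± 0.11 (SE) at D1, 0.61 ± 0.10 at D2 and 1.07 ± 0.11 at D3, or 2.10-fold at D3 (limma adjusted p = 6.7e-06). The D2 value lay just over the fold threshold and fell below it without D0 mouse 2 (0.55), without D2 mouse 28 or D2 mouse 23 (0.58 for both), or with mouse 23 counted in D1 (0.58).

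Btg2 (NM_007570) encodes an antiproliferative protein that speeds the removal of mRNA tails. Its level ranged from 0.06 to 0.55 in D0, from 0.04 to 0.54 in D1, from 0.16 to 0.54 in D2 and from 0.18 to 0.51 in D3, and the 4 groups overlapped almost entirely. The log2 change at D3 was 0.07, with a 95% confidence interval from -0.18 to 0.32, and the interval at D1 ran from -0.21 to 0.29 and at D2 from -0.16 to 0.31. All 3 intervals lie inside the 1.5-fold threshold.

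Zmat3 (NM_009517) encodes a zinc finger protein that binds RNA and acts on splicing and on the stability of transcripts. The Zmat3 log2 ratio of lung over reference RNA was -1.26, -0.95, -1.00, -1.00 and -1.42 in the 5 D0 mice and -0.91, -0.54, -0.27 and -0.53 in the 4 D1 mice. It was -0.29, -0.35, 0.01, -0.33 and -0.54 in the 5 D2 mice, mouse 23 last, and 0.18, 0.14, 0.49 and 0.55 in the 4 D3 mice. No treated mouse overlapped with D0, although D1 mouse 21 at -0.91 was close to the highest D0 mouse at -0.95, and all D3 mice lay above all D1 and D2 mice. The log2 change was 0.56 ± 0.14 (SE) at D1, 0.83 ± 0.13 at D2 and 1.47 ± 0.14 at D3, or 2.76-fold at D3 (limma adjusted p = 1.3e-06). At D1 the adjusted p was 0.0219 but the change of 1.48-fold was short of the threshold. Zmat3 was called at D1 in 8 of 31 alternatives, among them leaving out D1 mouse 21 (0.68) and slide as a fixed block. The 8 include adjusted p alone, which drops the fold threshold.

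The sestrins, which bind leucine and restrain the growth kinase mTORC1 and also take part in antioxidant defence, split. The Sesn2 log2 ratio of lung over reference RNA was -1.03, -0.96, -1.09, -0.92 and -0.72 in the 5 D0 mice and -0.60, -0.61, -0.46 and -0.35 in the 4 D1 mice. It was -0.11, -0.35, -0.30, -0.27 and -0.39 in the 5 D2 mice, mouse 23 last, and -0.07, -0.16, 0.06 and 0.04 in the 4 D3 mice. Sesn2 (NM_144907) was higher in all treated mice than in all D0 mice. Its log2 change was 0.44 ± 0.09 (SE) at D1, 0.66 ± 0.08 at D2 and 0.92 ± 0.09 at D3, or 1.89-fold at D3 (limma adjusted p = 1.84e-06). At D1 the adjusted p was 0.0064 and the change of 1.35-fold was short of the fold threshold. Sesn1 (NM_001162908) ranged from 0.59 to 0.94 in D0, from 0.67 to 1.07 in D1, from 0.81 to 1.07 in D2 and from 0.76 to 0.92 in D3, and every dose group overlapped with D0. Its log2 change at D3 was 0.07, with a 95% confidence interval from -0.12 to 0.26, and the upper bounds at D1 and D2 were 0.32 and 0.34. The Sesn1 interval at D3 and the Sesn2 interval at D3, from 0.73 to 1.10, do not overlap. The difference between the sestrins was not itself tested.

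Phlda3 (NM_013750) showed the largest change of the 10. It encodes a small protein that competes with the kinase Akt for membrane lipids and so restrains Akt. The Phlda3 log2 ratio of lung over reference RNA was 0.10, 0.17, 0.02, 0.14 and 0.19 in the 5 D0 mice and 1.27, 1.36, 1.66 and 1.49 in the 4 D1 mice. It was 1.55, 1.77, 1.65, 1.56 and 1.31 in the 5 D2 mice, mouse 23 last, and 2.29, 2.27, 2.24 and 2.43 in the 4 D3 mice. The groups D0 and D3 were each narrow, all treated mice lay more than 1 log2 unit above the D0 mean, and all D3 mice lay above all D1 and D2 mice. The log2 change was 1.32 ± 0.09 (SE) at D1, 1.45 ± 0.09 at D2 and 2.19 ± 0.09 at D3, which is 2.50-fold, 2.72-fold and 4.55-fold (limma adjusted p = 1.2e-07, 2.56e-08 and 4.09e-11). Ranked from the highest increase among all 31005 tested probes, Phlda3 was 14th at D1, 11th at D2 and 9th at D3.

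**Figure D2:**
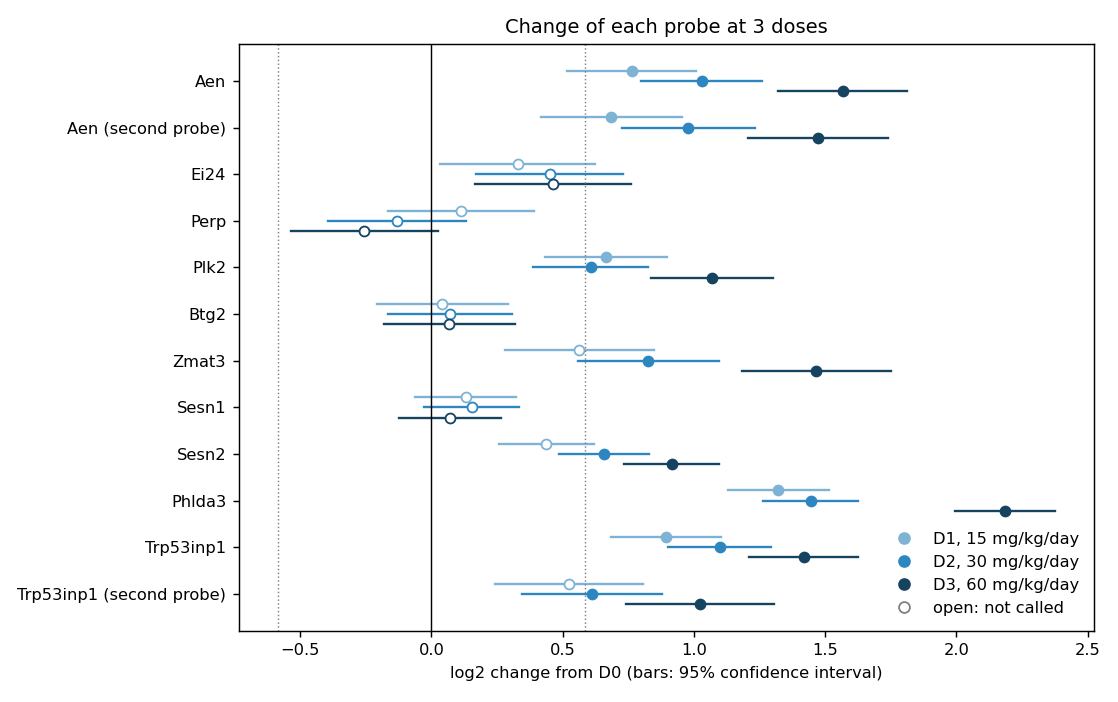
Log2 change from D0 (horizontal axis) for each of the 12 probes (vertical axis) at D1, D2 and D3, with 95% confidence intervals from limma. Filled points were called, open points were not, and dotted lines mark a 1.5-fold change. Phlda3 at D3 lies at 2.19, and the intervals of Btg2, Perp and Sesn1 include 0 at all doses.

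Groups that do not overlap were common among the effectors. At D1, 7 of the 12 probes had every D1 mouse above every D0 mouse, against 4.73% of all tested probes. At D2 and D3, 8 of 12 did, against 2.51% and 7.47%. Each of the 3 slides held all dose groups and was scanned on a day of its own, so the differences could also be taken within a slide. Slide 3 held 1 array per group, and its D3 array was the second array of mouse 35, whose first array was on slide 2, so these D3 values share a mouse. The dose mean lay above the D0 mean on all 3 slides for 9 of the 12 probes at D1, 10 at D2 and 8 at D3, against 23.9%, 19.3% and 26.6% of all tested probes. The 8 probes called at D3 were among them at each dose, as their calls rest on the same mice. Ei24 at D3 was -0.09 on slide 3, against 0.44 and 0.53 on the others. Phlda3 at D3 was higher than the D0 mice of the same slide by 2.15 on slide 1, by 2.29 on slide 2 and by 2.17 on slide 3. Zmat3 varied more, with 1.27, 1.54 and 1.93. On all 3 slides each dose group kept to a column of its own, so that dose and position on the slide cannot be told apart.

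**Figure D3:**
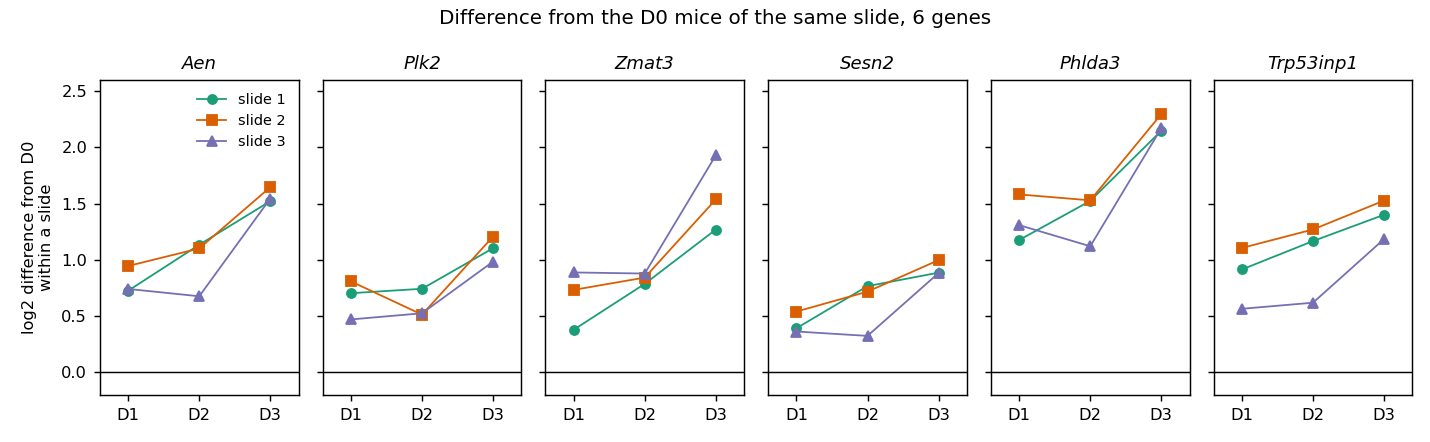
Log2 difference between the mean of a dose group and the mean of the D0 mice on the same slide (vertical axis) at D1, D2 and D3 (horizontal axes), for the 6 called genes by their brightest probe, with one symbol and colour per slide. All points lie above 0, D2 on slide 3 is mouse 23 alone, and D3 on slide 3 is the second array of mouse 35.

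The shape over dose was compared next. Between D1 and D2, 0 probes of an effector were called by limma, with 3 higher by unadjusted p, and 0% of all tested probes were called higher. The D2 minus D1 change of the 6 called genes was between -0.06 for Plk2 and 0.27 for Aen, and neither counting mouse 23 in D1 nor leaving it out gave a call. From D2 to D3, Phlda3 was called, at 0.74 ± 0.09 (SE, limma adjusted p = 0.00163), against 0.0935% of all tested probes. Zmat3, at 0.64, had an adjusted p of 0.0644, and Aen, at 0.54, one of 0.0748. Zmat3 was called in 5 of 30 alternatives. From D1 to D3, 4 probes of 3 genes were called higher, against 0.11% of all probes, namely Zmat3 (0.90), Phlda3 (0.86) and both probes of Aen (0.80 and 0.79). Trp53inp1 (0.52) and Sesn2 (0.48) passed the adjusted p but not the fold threshold, and Plk2 (0.40) passed neither. Perp was lower in all 4 D3 mice than the D1 mean, by -0.37, and had a trend of -0.30, neither of which passed (limma adjusted p = 0.495 and 0.170). With median centring 0 probes were called from D1 to D3, and 3 were without D1 mouse 21 or 25 or without D3 mouse 34 or 35. Fitted as a straight line against dose, 8 probes of these 6 genes were called rising, against 0.951% of all tested probes rising. The share of the D3 change that was present at D1 was 38.4% for Zmat3, 47.8% for Sesn2, 48.7% for Aen, 60.5% for Phlda3, 62.2% for Plk2 and 63.0% for Trp53inp1. These shares are of log2 changes and were not tested against each other.

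Of 29 other target genes of p53 taken from general knowledge, 27 could be tested. Called higher were 4 at D1, 5 at D2 and 8 at D3, against 0.593%, 0.435% and 1.21% of all probes. The median log2 change of the 27 was 0.20, 0.20 and 0.32. With median centring, 3, 3 and 4 were called higher. By limma 0 were called lower, with 1 lower at D2 by unadjusted p. The 3 largest at D3 were Gdf15, a secreted stress cytokine, at 3.69 ± 0.18 (SE, limma adjusted p = 1.82e-10), Cdkn1a, the cyclin-dependent kinase inhibitor p21, at 3.12 ± 0.15 (adjusted p = 1.49e-10), and Ccng1, cyclin G1, at 2.19 ± 0.10 (adjusted p = 9.32e-11). Among the others were the apoptosis gene Bax (1.13), the death receptor gene Tnfrsf10b (0.80), Mdm2 (0.80) and the translesion polymerase gene Polk (0.73), whose call was lost without D3 mouse 35. The apoptosis genes Bbc3 (0.38) and Pmaip1 (0.54) were not called. At D3 Pmaip1 passed the adjusted p (limma adjusted p = 0.0114) but not the fold threshold, and Bbc3 passed neither. By adjusted p alone, 14 of the 27 were higher at D3, against 6.02% of all probes. Trp53 itself, the gene for p53, was not called, at -0.24, -0.29 and -0.36 at D1, D2 and D3 (limma adjusted p = 0.0815 at D3). Mdm2, counted here as a target, was thus called higher at D3. Of 11 other tested genes, for p53 and its regulators, 0 were called higher by limma, with 0 higher and 2, 1 and 4 lower by unadjusted p at D1, D2 and D3, and 1 was called lower, against 0.464% of all probes called lower at D1, 0.19% at D2 and 1.23% at D3. It was Mdm4, at -0.77 ± 0.24 (SE) at D3 (limma adjusted p = 0.0371), and that call was lost in 8 of 31 alternatives, among them leaving out D0 mouse 3, 4 or 5 or D3 mouse 31 or 32.

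Genes related to the effectors by sequence family were also read. They include Phlda1, Sesn3, Trp53inp2, Btg1, Plk1, Plk3 and Zmat1, and of 17 tested, 0 were called at any dose by limma, which at the shares of all probes called is no result about the relatives. By unadjusted p, 4 were higher and 3 lower at D1, 0 and 1 at D2, and 1 and 3 at D3. By adjusted p alone, which 12.4% of all probes passed at D3 in either direction, 2 were lower at D3, Tob2 (-0.24) and Zmat4 (-0.44). The median log2 change of the 17 was -0.02 at D1, 0.03 at D2 and -0.01 at D3. Further lists were read in the same way, and a share of 0 in lists of this size lies near that of all probes. Of 13 tested immediate early genes, to which Btg2 is often counted, Egr2 alone was called, lower, at -0.63 ± 0.13 (SE) at D2 (limma adjusted p = 0.0147), a call lost with median centring, with only D0 and D2 in the fit, and without D0 mouse 1 or D2 mouse 30. Sesn2 is also a known target of ATF4, the factor of the amino acid and endoplasmic reticulum stress response. Of 9 tested genes of the ATF4 list, which holds Atf4 itself beside its targets, 0 were called at any dose by limma. By unadjusted p, 4 were lower and 0 higher at D3. By adjusted p alone 3 were lower at D3, where 12.4% of all probes passed in either direction. These were Atf4 (-0.38), Phgdh (-0.51) and Trib3 (-0.51), all short of the fold threshold. Sesn1 and Sesn3 are known FOXO targets. Of 9 tested genes of the FOXO list, which holds Foxo1 and Foxo3 themselves beside targets, 0 were called at any dose by limma. By unadjusted p, 1 was higher and 1 lower at D3, the latter, Bcl6 (-0.57), also by adjusted p. The part of ATF4 and FOXO in the sestrin values was not tested.

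**Figure D4:**
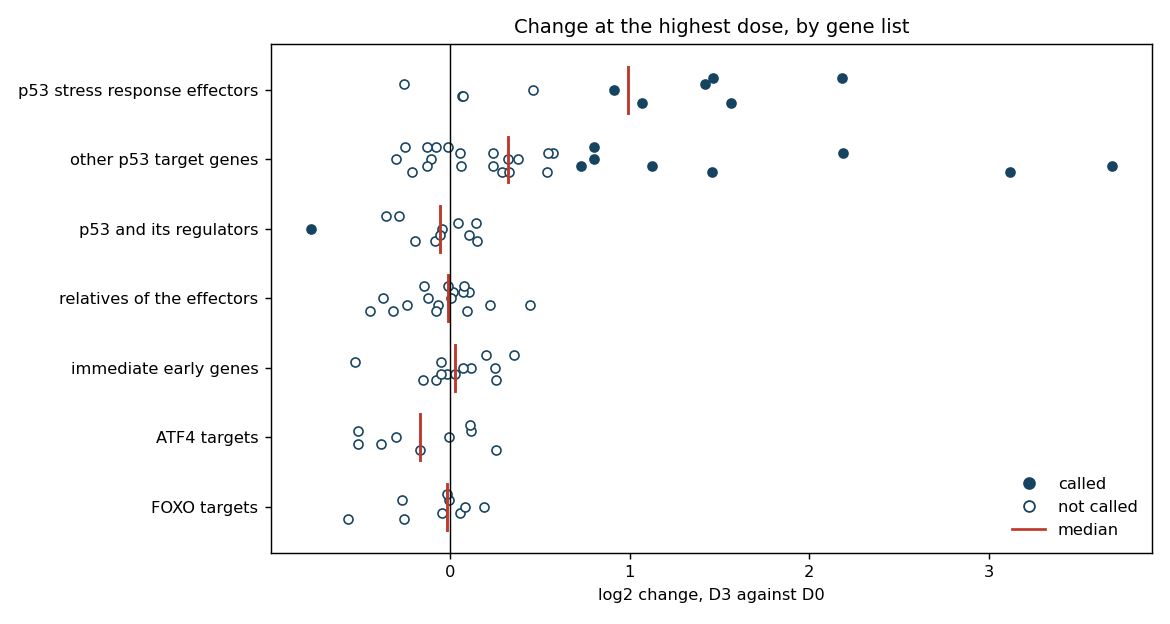
Log2 change at D3 against D0 (horizontal axis) for each tested gene of 7 lists (vertical axis), each gene by its brightest probe. Filled points were called, open points were not, and red lines are list medians. The median is 0.99 for the effectors and 0.32 for the other p53 targets, and the sole called point among p53 and its regulators is Mdm4 at -0.77.

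The genes whose levels followed Phlda3 most closely over the 18 mice were, by Pearson r among all tested genes, Cdkn1a (0.995), Gdf15 (0.981), Ccng1 (0.973), Lrrc75b (0.973) and Thyn1 (0.971). These values describe the ranking, and much of each r is carried by the dose groups, which the mice share. Lrrc75b changed by 1.22 and Thyn1 by 1.53 on the log2 scale at D3.

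Markers of some cell types moved with dose as well. The shares of all probes called were 0.593%, 0.435% and 1.21% higher and 0.464%, 0.19% and 1.23% lower at D1, D2 and D3. Of 6 tested proliferation genes, 6 were called higher at D1, 4 at D2 and 0 at D3, where 2 were higher by unadjusted p, and their mean level relative to D0 ranged from 0.59 to 1.39 in D1, whereas the effectors were highest at D3. With median centring, 0 of the proliferation genes were called at any dose, and their median change at D1 was 1.31. Of 5 tested neutrophil markers, 4 were called higher at D3, led by S100a8 (1.77), whereas Csf3r was lower by adjusted p alone (-0.46), and their mean level ranged from -0.33 to 0.38 in D0 and from 0.44 to 1.76 in D3. With median centring and with processed signals S100a8 alone was called higher, and the S100a9 call was lost in 8 of 31 alternatives, among them leaving out D0 mouse 1, 2 or 5 or D3 mouse 32 or 34. Of 6 natural killer cell markers, Gzma was called lower at D1 (-1.60), D2 (-2.13) and D3 (-3.07) and Prf1 at D3 (-0.66), and their mean level ranged from -0.42 to 0.39 in D0 and from -1.07 to -0.65 in D3. The Prf1 call was lost with median centring and without D0 mouse 3, and the Gzma calls at D1 and D2 with median centring. The Gzma call at D1 was also lost with only D0 and D1 in the fit and without D0 mouse 1 or 3 or D1 mouse 22 or 24. The endothelial marker Pecam1 was called higher at D1 (0.67) and D3 (0.66), with the mean level of 6 endothelial markers overlapping between D0 (-0.31 to 0.29) and D3 (-0.13 to 0.26), and both calls were lost with median centring and with processed signals, and the D1 call also with only D0 and D1 in the fit and without D1 mouse 25. The macrophage marker Siglecf was called lower at D2 (-1.05), a call lost in 12 of 31 alternatives, among them leaving out any D0 mouse or D2 mouse 23 or 26. The mean level of 6 macrophage markers ranged from -0.13 to 0.07 in D0 and from -0.78 to -0.15 in D2. The 6 markers of alveolar type 2 cells, which secrete surfactant, were well above background in all 5 D0 mice, and 0 were called at any dose by limma, with Abca3 alone lower by adjusted p at D3 (-0.48). The part of these cells in the effector changes was not tested.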

How the data were processed

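Lung RNA of 18 mice was measured on 19 arrays with both dyes over 3 slides (8, 7 and 4 arrays). The deposited scanner files hold probe intensities, and the median intensity of each dye, without background subtraction, was used. The authors also deposited loess-normalised log2 ratios, which served as an alternative and correlated with those computed here at 0.995 to 0.998 per array. Red over green log2 ratios were normalised within each array by loess (span 0.3) with limma 3.58.1 in R 4.3.3, without outlier spots, and arrays of a mouse were averaged. Between 54.5% and 64.7% of probes per array were well above background in the lung channel, and 0 spots were saturated. The number of mice limits the precision.

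Probes well above background in at least 4 mice of 1 group were tested (31005 of 55681), in 1 limma fit of all 4 groups that took the place of the package named in the study's methods, with Benjamini-Hochberg adjustment over all of them. The fit was tested on simulated data. A gene with several probes was represented by the one with the highest mean lung signal, and the mean level of a list in a mouse is its mean difference from the D0 mean. Symbols came from RefSeq accessions, of which 21465 of 22765 matched.

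The members, lists and tests were chosen with earlier results of these data known. Named by rule were the members, Trp53, the 3 largest increases among the other p53 targets, called genes of the related lists and the 5 genes most alike to the member that changed most. The other named targets, relatives and cell markers were chosen after their values were seen. Alternatives were median centring, processed signals, the red channel alone, the deposited log2 ratios, normexp correction (offset 50, on median intensities), other filters, slide as a block, either array of mouse 35, mouse 23 in D1, adjusted p alone, pairs of groups fitted alone and leaving out each mouse.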

Additional observations from a re-analysis of the deposited data

How the results depend on the processing

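Of the alternatives, median centring in place of loess changed the most effector calls, 18 of 60. The red channel alone and the processed signals, also without this loess step, changed 2 of 60 each. With median centring, 1 probe was called at D1, 2 at D2, 5 at D3, 0 for D3 against D2 and 4 for the trend. The median change over all tested probes then moved to 0.17, 0.12 and 0.06 at D1, D2 and D3, and relative to that shift the effectors' median was 0.58, 0.67 and 1.04, against 0.49, 0.64 and 0.99 with loess. Over all probes, median centring gave 12, 18 and 98 calls, against 328, 194 and 754. The cause was not tested. For D3 against D2, 2 probes were called with the red channel alone and with slide as a fixed block. Without the fold threshold, 8 probes were called at D1. Leaving out 1 mouse at a time gave 5 to 7 probes at D1, 6 to 8 at D2, 8 to 9 at D3, 1 to 3 for D3 against D2 (3 without D2 mouse 29, 2 without D1 mouse 21 or D2 mouse 28) and 8 to 9 for the trend. For single probes, 1789 of 1836 alternative values kept their side of the threshold, 22 gained a call, 25 lost one and none changed the sign of a call. Phlda3 was called in 31 of 31 alternatives at D1, D2 and D3, and its call for D3 against D2 was lost with median centring (0.68). No paired analysis was possible because the dose groups share no mouse numbers. With slide as a block, 338, 223 and 813 of all probes were called at D1, D2 and D3. Arrays were of 1 dye orientation, so dye bias of a probe was not tested.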
